A study of Mus musculus with 12 samples.

Results

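Tendon and cartilage are built by small sets of genes, some of which skin uses as well. In stretched and unstretched scars of mice with and without *Tem1*, the gene listed as *Cd248*, 10 of these genes were followed. The genes are the transcription factors *Scx*, *Mkx*, *Sox5* and *Sox6*, the tendon membrane protein gene *Tnmd*, and the matrix genes *Acan*, *Col2a1*, *Comp*, *Cilp* and *Cilp2*. They were chosen by symbol from the 35976 genes listed in the count files, and all 10 were found. Of these, 9 were among the 18853 genes with enough counts to be tested, and *Col2a1* was not. No member passed the test by edgeR in any of the 6 comparisons made, and DESeq2, run as an alternative, called *Sox6*, *Cilp* and *Scx* with traction in *Tem1WT/WT* mice, where it called 21.5% of all genes. Traction in *Tem1WT/WT* mice came with the lowest levels of *Sox6* and *Scx*, without overlap with the sham libraries. Of all genes tested, 18% were lower in this way. There, 9 of 21 genes that build chondroitin sulfate chains and 4 of 7 that cleave aggrecan rose by edgeR, against 5.61% of all genes. Both of these counts were 0 without *Tem1WT/WT* sham replicate 1 or without replicate 2, as was that of all genes.

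In tendon, SCX marks the progenitors, acts as a basic helix-loop-helix factor on E-box DNA and is needed for *Tnmd*, whose product tenomodulin marks mature tendon cells, while MKX promotes the tendon collagens. In cartilage, SOX5 and SOX6 work beside SOX9 to switch on the genes of type II collagen and aggrecan, the latter a large proteoglycan that carries chondroitin sulfate and holds water. Skin is not a tissue of either kind, yet fibroblasts, hair follicles and the thin muscle layer under the skin use some of these genes.

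RNA was sequenced from scars of male mice aged 8 to 12 weeks, with 3 mice in each of 4 groups and 1 library per mouse. All mice received a 1.5-cm split wound in the back skin and, 6 days later, a plastic device. In the traction groups the device was lengthened by 1 mm per day to 8 mm in total, and in the sham groups it stayed in place without lengthening. *Tem1WT/WT* mice carried the intact gene. In *Tem1lacZ/lacZ* mice the 1 exon of *Tem1* is replaced by lacZ in every tissue, so a change cannot be assigned to fibroblasts, and the line had been crossed to C57BL/6J for 10 generations. Levels are given in CPM after TMM normalization, a count divided by the corrected size of its library.

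Library totals were between 41536788 and 64644293 counts. *Cd248* stood at 92.4 to 337 CPM in the *Tem1WT/WT* libraries and at 0 to 0.248 CPM in the *Tem1lacZ/lacZ* libraries, as their labels say. Libraries differed in tissue content. The summed level of 12 skeletal muscle genes ran from 1535 to 15491 CPM in *Tem1WT/WT* sham, from 389 to 2343 CPM in *Tem1WT/WT* traction, from 1487 to 4047 CPM in *Tem1lacZ/lacZ* sham and from 1744 to 3075 CPM in *Tem1lacZ/lacZ* traction. That of 8 neutrophil genes was 7057 CPM in *Tem1WT/WT* traction replicate 1 and at most 666 CPM in the other 11 libraries. In such bulk samples, fewer cells of a type and less RNA per cell cannot be told apart.

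Several genes that define chondrocytes were at or near 0, while those that define tenocytes were all detected. Of 10 genes that define chondrocytes, 9 were in the files and 5 could be tested. *Acan* stood at up to 3.85 CPM, *Col9a3* at 0.738 to 3.17 CPM, *Hapln1* at up to 1.16 CPM and *Matn3* at up to 0.986 CPM, each detected in all 12 libraries. *Matn1* was at 0 in 11 of 12 libraries, *Ucma* was at 0 in 4 and did not exceed 0.0952 CPM, and *Col9a1* did not exceed 0.329 CPM. Their summed level, 17.1 to 88.0 CPM over all libraries, was mostly *Col11a1*, which fibroblasts also make and which stood at 11.5 to 79.4 CPM. All 7 genes that define tenocytes were detected. Their summed level was 221 to 241 CPM in *Tem1WT/WT* sham, 210 to 313 CPM in *Tem1WT/WT* traction, 201 to 344 CPM in *Tem1lacZ/lacZ* sham and 230 to 358 CPM in *Tem1lacZ/lacZ* traction, so the groups overlapped. These genes did not move together. Over the 12 libraries, the Pearson r of the log2 level with the log2 sum of the other 6 was 0.22 for *Scx*, −0.59 for *Tnmd* and −0.51 for *Mkx*. Whether the scars held tenocytes was not tested.

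Per kilobase of exon, *Cilp* and *Tnmd* were far above the other members. Their levels, as the mean over 12 libraries, were 58.8 CPM per kb (range 33.7 to 150) for *Cilp* and 58.3 CPM per kb (range 16.5 to 77.4) for *Tnmd*. The transcription factors followed, with 3.49 CPM per kb for *Scx* (range 1.26 to 6.20), 2.16 CPM per kb for *Mkx* (range 1.49 to 3.58), 1.19 CPM per kb for *Sox6* (range 0.445 to 3.01) and 0.776 CPM per kb for *Sox5* (range 0.362 to 1.24). The matrix genes other than *Cilp* came last. *Comp* stood at 0.598 CPM per kb (range 0.295 to 1.37), *Acan* at 0.244 CPM per kb (range 0.0649 to 0.524), *Cilp2* at 0.0851 CPM per kb (range 0.0393 to 0.148) and *Col2a1* at 0.0172 CPM per kb (range 0 to 0.0386). In this order only the steps from *Tnmd* to *Scx* and from *Cilp2* to *Col2a1* had ranges that did not overlap, and all other neighbours overlapped.

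The promoter windows of the highest members, *Cilp* and *Tnmd*, are shown because they differ in the letters that basic helix-loop-helix factors such as SCX can bind. RefSeq windows of GRCm38.p6, from 250 bases before to 50 bases after the start, were listed for 6 of the 10 members. The E-box, CANNTG on either strand, was found in 72.3% of all 32851 windows of this length, 1.39 times per window on average. In the *Cilp* window, chr9:65264930-65265229 on the plus strand, it occurs 3 times, and these letters are in capitals. The *Tnmd* window, chrX:133850758-133851057 on the plus strand, holds 0. These are matches of letters in a short window and not binding sites.
Cilp: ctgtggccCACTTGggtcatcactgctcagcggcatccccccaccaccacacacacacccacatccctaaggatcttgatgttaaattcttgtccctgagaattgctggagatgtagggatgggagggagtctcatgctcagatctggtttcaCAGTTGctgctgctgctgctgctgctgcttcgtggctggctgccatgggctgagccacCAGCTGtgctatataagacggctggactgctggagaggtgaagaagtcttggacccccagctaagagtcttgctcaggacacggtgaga
Tnmd: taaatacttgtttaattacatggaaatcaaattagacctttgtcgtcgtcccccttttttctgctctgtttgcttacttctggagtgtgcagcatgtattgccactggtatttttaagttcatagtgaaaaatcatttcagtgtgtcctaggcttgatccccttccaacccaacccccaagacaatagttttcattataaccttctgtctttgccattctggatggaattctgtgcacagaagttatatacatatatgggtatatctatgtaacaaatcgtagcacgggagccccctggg

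The first E-box of the *Cilp* window lies 242 bases before the start and reads CACTTG. The next, CAGTTG, lies 97 bases before it, and CAGCTG lies 39 bases before it. *Cilp* starts at base 65265180 of chromosome 9 and *Tnmd* at base 133851008 of the X chromosome in this annotation.

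**Figure D1:**
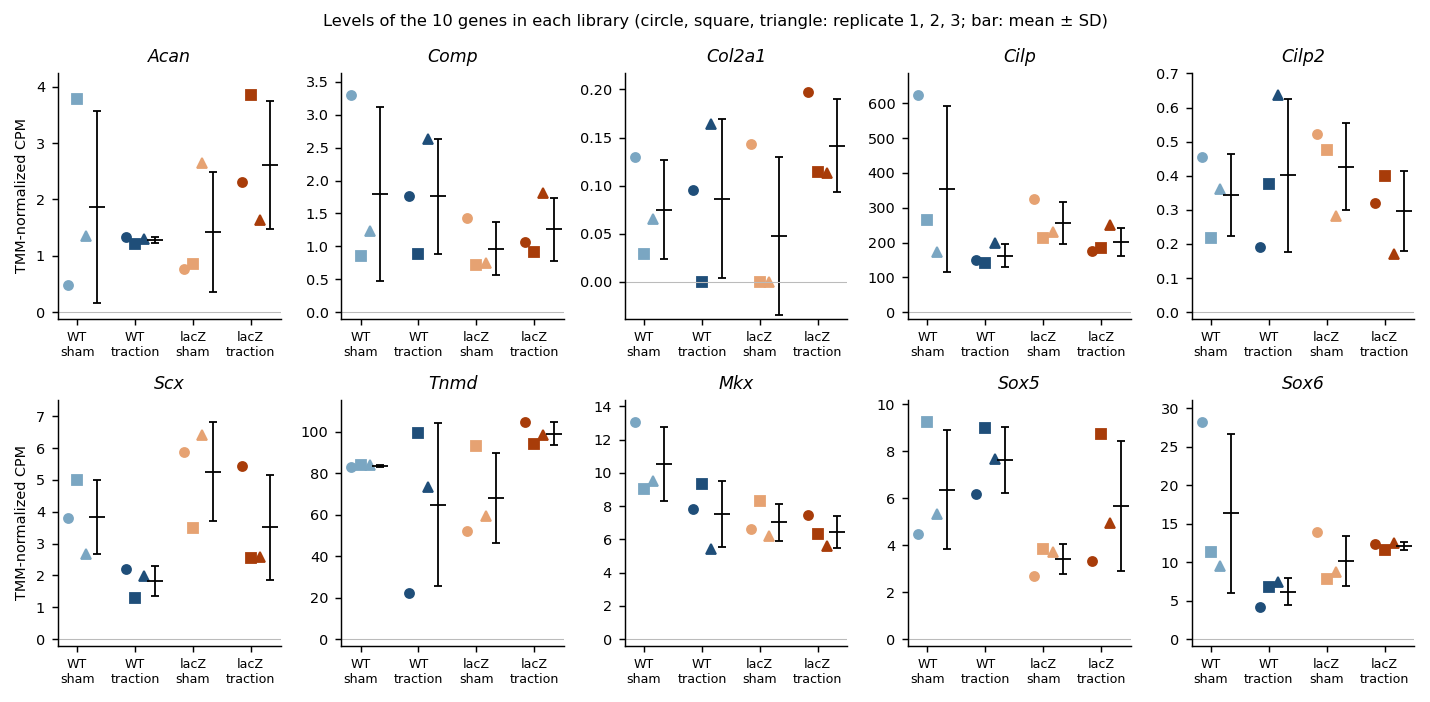
Level of each of the 10 genes in each of the 12 libraries, in TMM-normalized CPM on linear axes that differ between panels. Points are libraries, shaped by replicate number, and black bars are the group mean ± SD (n = 3). *Sox6* and *Scx* have their lowest points in WT traction, *Tnmd* falls to 22.3 CPM in 1 library of that group, and *Col2a1* stays under 0.2 CPM throughout.

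Traction was compared with sham within *Tem1WT/WT* mice to ask whether stretching a scar moves these genes. *Sox6* and *Scx* were lower in all traction libraries than in any sham library, *Cilp* was lower on average with overlapping libraries, and *Tnmd*, *Acan*, *Comp*, *Cilp2*, *Mkx* and *Sox5* overlapped as well. By edgeR's quasi-likelihood test, 0 of the 9 members had a Benjamini-Hochberg adjusted p under 0.05, while 9.15% of all genes tested did. At an unadjusted p under 0.05 there were 3 members, *Sox6*, *Cilp* and *Scx*, or 33.3%, against 31.4% of all genes. DESeq2 called these 3 at an adjusted p under 0.05, or 33.3%, against 21.5% of all genes, and limma-voom called 0, against 3.97% of all genes. The median log2 fold change of the 9 members was −0.48, against −0.01 over all genes tested.

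Among the tendon factors, *Scx* stood at 3.80, 5.01 and 2.69 CPM in the sham libraries of replicates 1, 2 and 3 and at 2.19, 1.30 and 1.99 CPM in the traction libraries. The groups did not overlap. Its log2 fold change was −1.07 (SE 0.39, adjusted p = 0.0930 by edgeR). *Mkx*, the homeobox factor, ranged from 9.01 to 13.1 CPM in sham and from 5.42 to 9.36 CPM in traction. The ranges overlapped and the log2 fold change was −0.48 (SE 0.24, adjusted p = 0.20 by edgeR). *Sox6* and *Scx*, or 22.2% of the tested members, were lower without overlap, as were 18% of all genes tested.

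*Tnmd* was almost the same in the sham libraries, with 82.8, 83.8 and 83.7 CPM. In traction it was 22.3, 99.1 and 73.1 CPM. The low value belonged to replicate 1, the library in which the neutrophil genes summed to 7057 CPM, and their part in the result was not tested. The log2 fold change of *Tnmd* was −0.36 (SE 0.41, adjusted p = 0.576 by edgeR) and became 0.030 without that library.

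Of the SOX factors, *Sox6* stood at 28.2, 11.3 and 9.48 CPM in sham and at 4.16, 6.82 and 7.44 CPM in traction. The highest sham library, replicate 1, was 2.50 times the next, yet even the lowest sham library was above every traction library. *Sox6* had the smallest p of the members here, with a log2 fold change of −1.41 (SE 0.40, 95% interval −2.29 to −0.53, adjusted p = 0.0508 by edgeR). Without sham replicate 1 the log2 fold change was −0.77 (adjusted p = 0.182 by edgeR), and without sham replicate 3 it was −1.67 (adjusted p = 0.0437 by edgeR). *Sox5*, its partner in cartilage, stood at 4.49, 9.24 and 5.34 CPM in sham and at 6.16, 8.99 and 7.68 CPM in traction, with a log2 fold change of 0.26 (SE 0.37, adjusted p = 0.669 by edgeR). The SOX5 gene thus overlapped between groups where the SOX6 gene did not.

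The matrix gene with the highest level, *Cilp*, encodes cartilage intermediate layer protein, which binds TGF-β1. It stood at 624, 266 and 173 CPM in sham and at 149, 140 and 200 CPM in traction, so that sham replicate 3 lay below traction replicate 3. On the log2 scale its fold change was −1.12 (SE 0.40, adjusted p = 0.0867 by edgeR). Without sham replicate 1, the highest library, it was −0.44 (adjusted p = 0.374 by edgeR), and without sham replicate 3 it was −1.43 (adjusted p = 0.0460 by edgeR). The related gene *Cilp2* was at 0.456, 0.218 and 0.360 CPM in sham and at 0.190, 0.375 and 0.637 CPM in traction, which overlapped, and its log2 fold change was 0.23 (SE 0.53, adjusted p = 0.797 by edgeR).

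*Acan*, the aggrecan gene, varied most in sham, with 0.478, 3.77 and 1.36 CPM, and least in traction, with 1.33, 1.21 and 1.29 CPM. All traction values lay inside the sham range. *Acan* had a log2 fold change of −0.55 (SE 0.68, adjusted p = 0.612 by edgeR), and it was 0.48 without sham replicate 2. *Comp*, whose product belongs to the thrombospondin family and bridges collagen fibres, stood at 3.30, 0.856 and 1.23 CPM in sham and at 1.76, 0.883 and 2.63 CPM in traction, with a log2 fold change of −0.02 (SE 0.56, adjusted p = 0.984 by edgeR). Its direction depends on single libraries, since it was 0.75 without sham replicate 1 and 0.32 without traction replicate 2. *Col2a1*, the type II collagen gene, had 0 to 8 counts per library, 50 counts in all 12 libraries and 0 counts in 3 of them. A count of 0 allows up to 3 counts, which is 0.0435 to 0.0739 CPM at these depths and covers counting error only, so a change of *Col2a1* was not detectable at this depth.

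**Figure D2:**
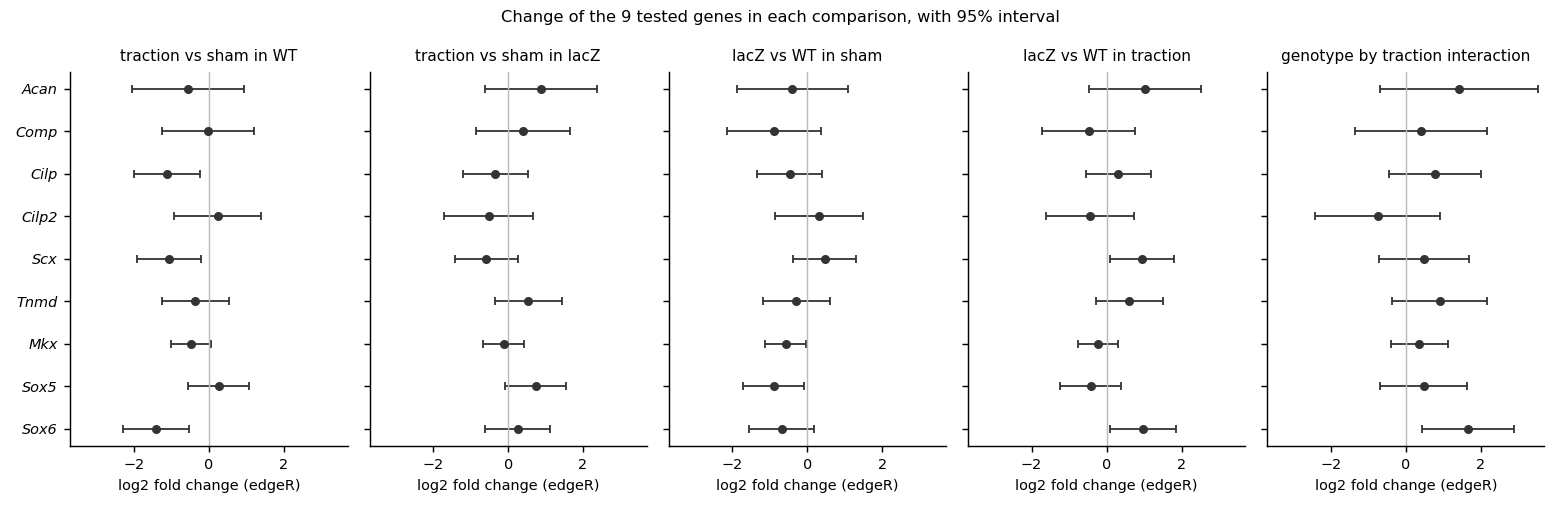
Log2 fold change of the 9 tested genes in 5 comparisons, as fitted by edgeR (points) with 95% intervals (lines), on 1 shared linear axis. The interval of *Sox6* lies below 0 for traction in WT mice and above 0 in the interaction panel, and most other intervals include 0. The intervals are not adjusted for the number of genes tested.

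The same comparison within *Tem1lacZ/lacZ* mice asked whether traction moved the genes when *Tem1* was absent. No member passed (0 of 9, edgeR), as for all genes (0% of 18853), and 0 members had an unadjusted p under 0.05 against 8.12% of all genes. DESeq2 and limma-voom also called 0 members here, against 0.122% and 2.31% of all genes. *Tnmd* was the only member without overlap between the groups (higher, 11.1% of members, against 6.77% of all genes). It stood at 52.1, 92.9 and 59.6 CPM in sham and at 105, 93.9 and 98.5 CPM in traction, all above the sham libraries. The log2 fold change was 0.54 (SE 0.41, adjusted p = 0.718 by edgeR).

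*Scx* in these mice stood at 5.88, 3.49 and 6.42 CPM in sham and at 5.42, 2.56 and 2.56 CPM in traction. Replicate 1 of the traction group lay within the sham range. The log2 fold change was −0.59 (SE 0.38, adjusted p = 0.680 by edgeR). *Sox6* stood at 13.9, 7.83 and 8.66 CPM in sham and at 12.3, 11.5 and 12.4 CPM in traction, a change of 0.26 on the log2 scale (SE 0.39, adjusted p = 0.871 by edgeR). Its 3 traction libraries were close together and lay inside the sham range. *Cilp* stood at 326, 214 and 230 CPM in sham and at 175, 183 and 249 CPM in traction, with a log2 fold change of −0.34 (SE 0.39, adjusted p = 0.823 by edgeR).

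*Acan* stood at 0.762, 0.854 and 2.64 CPM in *Tem1lacZ/lacZ* sham and at 2.32, 3.85 and 1.64 CPM in *Tem1lacZ/lacZ* traction. The groups overlapped through sham replicate 3, and the log2 fold change was 0.87 (SE 0.68, adjusted p = 0.727 by edgeR). *Sox5* had the smallest p of this comparison. It stood at 2.69, 3.82 and 3.71 CPM in sham and at 3.33, 8.73 and 4.92 CPM in traction, a change of 0.73 (SE 0.37, adjusted p = 0.629 by edgeR). *Comp* was between 0.712 and 1.43 CPM in sham and between 0.915 and 1.81 CPM in traction. *Mkx* was between 6.20 and 8.30 CPM in sham and between 5.58 and 7.47 CPM in traction, and *Cilp2* stayed between 0.170 and 0.524 CPM in both. All of these overlapped.

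Genotypes were then compared within each treatment. These comparisons use the libraries of the traction comparisons again, so the results are not independent of those above. In sham scars, 0 of 9 members passed by edgeR against 0.0106% of all genes, and 2 members, *Sox5* and *Mkx*, had an unadjusted p under 0.05 (22.2%, against 11.7% of all genes). The same genes were the members without overlap (lower, 22.2%, against 13.8% of all genes). All *Tem1lacZ/lacZ* sham libraries lay below all *Tem1WT/WT* sham libraries for both. For *Sox5* the values were 4.49 to 9.24 CPM in *Tem1WT/WT* and 2.69 to 3.82 CPM in *Tem1lacZ/lacZ*, with a log2 fold change of −0.90 (SE 0.37, adjusted p = 0.415 by edgeR). For *Mkx* they were 9.01 to 13.1 CPM and 6.20 to 8.30 CPM, with a log2 fold change of −0.58 (SE 0.24, adjusted p = 0.416 by edgeR). DESeq2 and limma-voom also called 0 members in sham scars, against 0.143% and 0.0053% of all genes.

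In traction scars, 0 of 9 members passed by edgeR against 0.106% of all genes, and 2 had an unadjusted p under 0.05 (22.2%, against 26.1% of all genes). DESeq2 and limma-voom also called 0 members, against 12.2% and 0.0849% of all genes. *Sox6*, *Scx* and *Acan* were higher in every *Tem1lacZ/lacZ* library than in any *Tem1WT/WT* library (33.3%, against 12.9% of all genes). The log2 fold change was 0.98 for *Sox6* (SE 0.40, adjusted p = 0.156 by edgeR) and 0.94 for *Scx* (SE 0.39, adjusted p = 0.162 by edgeR). The one for *Acan* was 1.02 (SE 0.68, adjusted p = 0.358 by edgeR), from 1.21 to 1.33 CPM in *Tem1WT/WT* to 1.64 to 3.85 CPM in *Tem1lacZ/lacZ*. *Tnmd*, at 22.3 to 99.1 CPM against 93.9 to 105 CPM, overlapped.

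Whether the effect of traction differed between genotypes was tested as an interaction. No member passed by edgeR (0 of 9, and 0% of all genes), by DESeq2 (0.366% of all genes) or by limma-voom (0% of all genes). *Sox6* alone had an unadjusted p under 0.05 (11.1%, against 8.91% of all genes). The log2 difference between the traction effects, *Tem1lacZ/lacZ* minus *Tem1WT/WT*, was above 0 for 8 of 9 members, with a median of 0.48. Its median over all genes was −0.0024. For *Sox6* it was 1.66 (SE 0.56, 95% interval 0.43 to 2.89, adjusted p = 0.548 by edgeR). It was 1.42 for *Acan* (SE 0.96), 0.90 for *Tnmd* (SE 0.58) and 0.78 for *Cilp* (SE 0.56). *Cilp2* was the exception with −0.75 (SE 0.75). The genotypes are thus not shown to differ in how any member answered traction.

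Averaged over the genotypes, 0 of 9 members passed by edgeR against 9.73% of all genes, and 2 had an unadjusted p under 0.05 (22.2%, against 30.7%). DESeq2 and limma-voom each called 1, *Scx*, or 11.1% of the members, below the 20.4% and 20.6% of all genes that these tools called. *Scx* had the smallest p, with a log2 fold change of −0.83 (SE 0.27, adjusted p = 0.0742 by edgeR), followed by *Cilp* with −0.73 (SE 0.28, adjusted p = 0.107 by edgeR).

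*Sox6*, *Cilp* and *Scx* varied with muscle content and also with the summed levels of other marker lists. All 12 skeletal muscle genes were lower in *Tem1WT/WT* traction than in sham by the fitted values, with a median log2 fold change of −2.80, all had an unadjusted p under 0.05, and 1 passed the test by edgeR, while 3.54% of all genes tested fell. That gene, *Myoz1*, is named after its value was seen (adjusted p = 0.0439). Over the 12 libraries, which share depth and normalization with the values compared, the log2 level of *Cilp* had a Pearson r of 0.74 with the log2 summed muscle level. The same r was 0.71 for *Scx* and 0.66 for *Sox6*. After the group means were taken out it was 0.58 for *Cilp*, 0.59 for *Scx* and 0.34 for *Sox6*. Other lists had r of similar size. It was −0.69 for *Sox6* with the neutrophil genes and −0.69 with the red cell genes (−0.41 and −0.02 within groups). For *Scx* with the fibroblast genes it was −0.76 (−0.33 within groups). For *Cilp* with the skin and scar genes it was −0.62 (−0.31 within groups). *Tem1WT/WT* sham replicate 1 held both the most muscle RNA and the most *Sox6* and *Cilp*. SOX6 is also known to repress slow-fibre genes in skeletal muscle. The part of muscle, or of any other tissue or cell type, in the lower levels of these 3 genes was not tested.

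**Figure D3:**
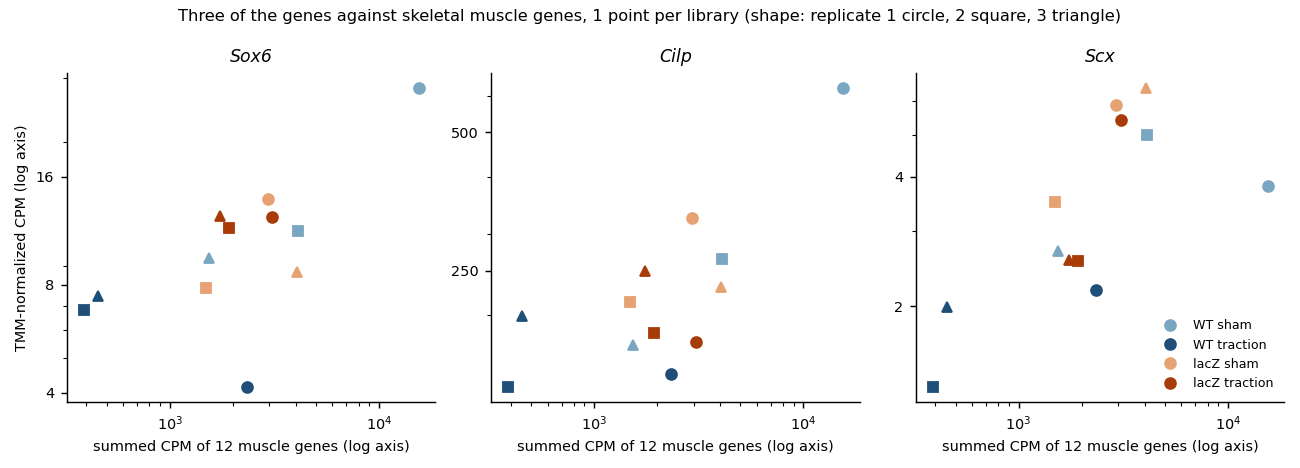
Level of *Sox6*, *Cilp* and *Scx* in TMM-normalized CPM (vertical) against the summed CPM of 12 skeletal muscle genes (horizontal), both on log axes, with 1 point per library. Points farther right tend to be higher, and WT sham replicate 1, at 15491 CPM of muscle genes, carries the highest *Sox6* and *Cilp*, while *Scx* peaks in lacZ sham replicate 3.

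Most pairs of members were weakly correlated across libraries. Of their 45 pairs, 2 had a Pearson r above 0.5 over the 12 libraries and 2 had one below −0.5, with a median of 0.09. After the group means were taken out, 8 pairs were above 0.5 and 5 below −0.5, with a median of 0.08. The closest pair was *Cilp* with *Sox6* (r = 0.84, and 0.88 within groups), followed by *Comp* with the barely detected *Col2a1* (r = 0.69, and 0.79 within groups). *Comp* and *Cilp* had r = 0.49 over the libraries and 0.81 within groups, and *Acan* and *Sox5* 0.42 and 0.65. *Scx* and *Sox5* went in opposite directions (r = −0.67, and −0.36 within groups), as did *Acan* and *Comp* (r = −0.56, and −0.70 within groups). *Scx* and *Tnmd*, a factor and its known target in tendon, had r = −0.01, and −0.41 within groups. *Acan* and *Sox5* followed the summed level of the chondrocyte defining genes (r = 0.71, with *Acan* itself left out of the sum, and r = 0.77), a sum made up mostly of *Col11a1*.

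The genes whose log2 level was most like each member's over the 12 libraries were also listed, leaving out genes whose mean log2 CPM was under 1. Each nearest gene had the highest r of 13645 or 13646 genes compared, so these values are a description only. *Sox6* was nearest to *Ache* (r = 0.95), *Acot2* and *Sh3d21*. *Cilp* was nearest to *Ppip5k1* (r = 0.94), *Gbas* and *Coq10a*, and *Scx* to *Apoo* (r = 0.90), *Smpx* and *Hadhb*. *Tnmd* was nearest to the epidermal keratin gene *Krt10* (r = 0.91) and to *Sgpp1*. Both *Tnmd* (22.3 CPM) and *Krt10* (145 CPM) had their lowest level in *Tem1WT/WT* traction, and the r without that value was not tested. *Sox5* was nearest to *Dnmt1* (r = 0.95), *Bnc2* and *Ddx51*, and *Mkx* to *Slain2* (r = 0.90), *Rictor* and *Gabpb2*. The r of the nearest gene was lower for the tested matrix genes other than *Cilp*. It was 0.84 for *Comp* (*C77080*, then *Slc2a8* and *Tmem230*), 0.83 for *Acan* (*Nkrf*, then *Clspn* and *Col28a1*) and 0.83 for *Cilp2* (*Mettl21a*, then *Cnn1* and *E430018J23Rik*).

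The genes that make or cut the sugar and protein parts of this matrix were followed next in *Tem1WT/WT* mice. Of 21 genes that build chondroitin sulfate, the sugar chains that aggrecan carries, 9 rose with traction and 0 fell by edgeR, while 5.61% of all genes tested rose, and the median log2 fold change of the list was 0.83 against −0.01 over all genes. *Chst11*, a chondroitin sulfotransferase, stood at 11.2, 18.2 and 20.1 CPM in sham and at 141, 48.8 and 52.1 CPM in traction (log2 fold change 2.28, SE 0.40, adjusted p = 0.0252 by edgeR). *Chsy1*, which polymerizes the chain, stood at 19.6, 33.2 and 36.6 CPM in sham and at 95.1, 95.1 and 112 CPM in traction (log2 fold change 1.76, SE 0.32, adjusted p = 0.0253 by edgeR). Every traction library was above every sham library for both, as for 17.7% of all genes tested. Both genes were named because they passed the test on these same libraries, so this adds no separate evidence. *Xylt1*, *B4galt7*, *Csgalnact1*, *Chpf*, *Chpf2*, *Chst12* and *Chst15* were the others that rose, and they span the start of the chain, its growth and its sulfation. In *Tem1lacZ/lacZ* mice 0 of 21 passed, as did 0 of all 18853 genes tested, and the median of the list was 0.32. *Chst11* stood at 14.6 ± 2.23 CPM in sham and at 25.7 ± 5.52 CPM in traction there (SD, n = 3).

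Of 7 tested genes for enzymes that cleave aggrecan, 4 rose and 0 fell in *Tem1WT/WT* mice by edgeR, where 5.61% of all genes rose, with a median log2 fold change of 1.26. *Adamts4*, an aggrecanase, stood at 4.38, 12.2 and 18.3 CPM in sham and at 90.0, 55.6 and 81.5 CPM in traction (log2 fold change 2.70, SE 0.47, adjusted p = 0.0252 by edgeR). *Mmp13*, a collagenase that also cuts aggrecan, stood at 14.5, 11.2 and 35.2 CPM in sham and at 1929, 154 and 138 CPM in traction (log2 fold change 5.19, SE 1.06, adjusted p = 0.0300 by edgeR). The highest of these is replicate 1, the library with the most neutrophil RNA, whose part was not tested. *Adamts9* and *Adamts15* were the others that rose. *Adamts1*, *Adamts5* and *Adamts8* did not pass, and the log2 fold change of *Adamts5* was 0.26 (SE 0.37, adjusted p = 0.658 by edgeR). In *Tem1lacZ/lacZ* mice 0 of 7 passed, as did 0 of all 18853 genes tested, and the median of the list was 0.52. There, *Mmp13* was at 26.8 ± 9.13 CPM in sham and at 32.5 ± 14.4 CPM in traction (SD, n = 3).

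Other matrix genes of tendon and cartilage went both ways. Of 9 further tendon matrix genes, *Tnc* and *Col12a1* rose and *Angptl7* fell in *Tem1WT/WT* mice, with a median of 0.38, while 5.61% of all genes rose and 3.54% fell. *Col12a1*, a fibril-associated collagen, went from 181, 523 and 622 CPM to 3102, 2751 and 4087 CPM (log2 fold change 2.91, SE 0.47, adjusted p = 0.0242 by edgeR). *Tnc*, the tenascin-C gene, went from 88.9, 417 and 310 CPM to 7503, 1049 and 2411 CPM (log2 fold change 3.75, SE 0.78, adjusted p = 0.0310 by edgeR). *Angptl7* fell by 3.26 on the log2 scale (SE 0.76, adjusted p = 0.0348 by edgeR). Of 16 further cartilage matrix genes, *Col27a1* and *Prg4* rose and *Cytl1* fell, with a median of −0.14, so that 3 of 16 passed against 9.15% of all genes. *Prg4*, the lubricin gene, went from 29.3, 5.24 and 18.1 CPM to 258, 104 and 75.7 CPM (log2 fold change 3.06, SE 0.71, adjusted p = 0.0337 by edgeR). *Cytl1* was near the limit of detection, at 0.261 to 0.999 CPM in sham and 0.0411 to 0.143 CPM in traction. In *Tem1lacZ/lacZ* mice, *Prg4* went from 6.62 to 22.5 CPM in sham to 45.6 to 75.9 CPM in traction. *Col12a1* went from 343 to 648 CPM to 824 to 1743 CPM there, and *Col27a1* from 13.8 to 22.9 CPM to 28.1 to 59.8 CPM. These were higher without overlap, though none passed by edgeR, and *Tnc*, *Angptl7* and *Cytl1* overlapped there. In these mice, 4 of 16 cartilage matrix genes and 2 of 9 tendon matrix genes were higher without overlap, against 6.77% of all genes.

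Of 8 tested genes most closely related to the members, *Thbs1*, a thrombospondin related to *Comp*, and *Bcan*, a proteoglycan of the aggrecan family, rose in *Tem1WT/WT* mice, against 5.61% of all genes. *Thbs1* went from 189, 204 and 234 CPM to 2905, 973 and 891 CPM (log2 fold change 2.93, SE 0.51, adjusted p = 0.0252 by edgeR). *Bcan* was at 0.0651 to 0.409 CPM in sham and at 1.40 to 2.62 CPM in traction (log2 fold change 3.05, SE 0.81, adjusted p = 0.0432 by edgeR). Its 3 to 25 counts in sham were near the limit of detection. *Vcan*, the versican gene, had a log2 fold change of 0.33 (adjusted p = 0.660 by edgeR), and *Thbs4*, a thrombospondin of tendon, one of 1.39 (adjusted p = 0.245 by edgeR). Of 14 regulators of tendon and cartilage tested, *Pax9* rose and *Egr2* fell by edgeR, so that 2 of 14 passed against 9.15% of all genes. *Pax9* was near the limit of detection, at 0.0290 to 0.213 CPM (2 to 13 counts) in sham and 0.464 to 1.01 CPM in traction. *Sox9*, the partner of SOX5 and SOX6, stood at 45.6, 54.7 and 39.7 CPM in sham and at 22.9, 37.4 and 25.9 CPM in traction. All traction libraries lay below the sham libraries, and the log2 fold change was −0.70 (SE 0.24, adjusted p = 0.0805 by edgeR). In *Tem1lacZ/lacZ* mice its log2 fold change was 0.03 (SE 0.24). Of all genes tested, 18% were lower in this way in *Tem1WT/WT* mice, as were 10 of 11 hair follicle genes. The paper lists *Sox9* among genes of epidermal and hair follicle development, and the part of hair follicles in its level was not tested. *Lect1*, a relative of *Tnmd*, did not exceed 0.524 CPM.

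In *Tem1lacZ/lacZ* mice, between the genotypes and in the interaction, 0 genes of these 6 lists passed by edgeR. These comparisons called from 0% to 0.106% of all genes. By edgeR, a difference between the genotypes is thus not shown for any of the lists. DESeq2 called 12.2% of all genes between genotypes in traction scars, and its calls were not counted for the lists there. In that comparison, 13 of the 21 chondroitin sulfate genes, or 61.9%, had an unadjusted p under 0.05 by edgeR, against 26.1% of all genes. The median log2 fold change of the 21 genes was −0.67. Of them, 11, or 52.4%, were lower without overlap, against 13.7% of all genes. The counts in *Tem1WT/WT* mice depended on single libraries. Without *Tem1WT/WT* sham replicate 1, or without replicate 2, 0 genes passed in the chondroitin sulfate, aggrecan cleavage, cartilage matrix and tendon matrix lists, as 0 of all genes did. Without traction replicate 1, the library with the most neutrophil RNA, the chondroitin sulfate list had 4 genes past the threshold, aggrecan cleavage 3, cartilage matrix 2 and tendon matrix 1. Without *Tem1lacZ/lacZ* sham replicate 3 these counts were 2, 1, 0 and 1 in the same order. Without *Tem1WT/WT* sham replicate 3 the aggrecan cleavage list had 2 and the cartilage matrix list 1, and without *Tem1WT/WT* traction replicate 3 the chondroitin sulfate list had 5 and aggrecan cleavage 2. Aggrecan cleavage also had 2 without *Tem1lacZ/lacZ* traction replicate 2 or 3. The count over all genes fell in these fits as well, from 1725 with all libraries. It was 360 without *Tem1WT/WT* traction replicate 1 and 169 without *Tem1lacZ/lacZ* sham replicate 3. Without *Tem1WT/WT* sham replicate 3 it was 820, and without *Tem1WT/WT* traction replicate 3 it was 704. Without *Tem1lacZ/lacZ* traction replicate 2 or 3 it was 1055 or 965.

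**Figure D4:**
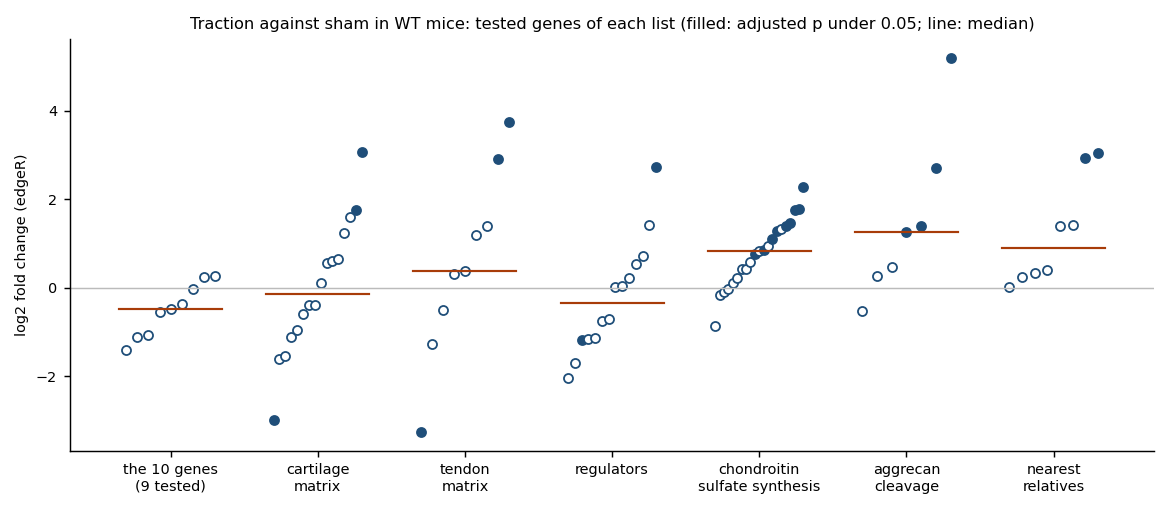
Log2 fold change with traction in WT mice (vertical, linear, edgeR) for the tested genes of each list, with filled points for adjusted p under 0.05 and a line at each list's median. The 9 tested genes are all open, while 9 of 21 chondroitin sulfate genes and 4 of 7 aggrecan-cleaving genes are filled and above 0. Of all genes tested, 5.61% rose.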

How the data were processed

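Scars of 12 male mice, 3 in each of 4 groups taken from the sample labels, were sequenced as stranded poly(A) libraries with paired-end reads. The authors trimmed reads with fastp 0.20.0, aligned them to GRCm38 with HISAT2 2.1.0 and counted them on genes with featureCounts 2.0.0, per the submitters' processing notes, and deposited raw counts per gene. The annotation, strandedness option and rule for multiply aligned reads are not given in the sources used here, so counts of related or overlapping genes could be affected.

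Genes were filtered with filterByExpr in edgeR 4.0.16 (R 4.3.3), normalized by TMM and fitted with the robust quasi-likelihood option, all 4 groups together, leaving 8 residual degrees of freedom. All tests were two-sided, with Benjamini-Hochberg adjustment over 18853 genes and a threshold of 0.05, and p-values measure the spread between mice. The edgeR, DESeq2 1.42.0 and limma 3.58.1 steps were tested on simulated data first. Alternatives were 2 other filters on low counts, 2 other scalings, DESeq2, limma-voom, a fit without the robust option, a block for replicate number, fits of the 6 libraries compared alone, and leaving out each library. Log2 CPM used a prior count of 2. Exon lengths came from GENCODE vM21 basic transcripts, and coordinates and promoter windows from RefSeq. Within groups, no pair of libraries was a copy of another. Figures were drawn with Python 3.11.15 and matplotlib 3.10.9.

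The 10 members, the gene lists and the rule for naming genes were chosen with earlier results of these data known. By that rule all members were named, with the list genes past the threshold, *Sox9*, *Lect1*, *Vcan*, *Thbs4*, and the 3 genes most like each member, of which 1 is not reported here. *Adamts1*, *Adamts5*, *Adamts8*, *Matn1*, *Matn3*, *Hapln1*, *Ucma*, *Col9a3*, *Col9a1* and *Col11a1* were named after their values were seen. In the lists, 3 symbols were not found in the files. The other assays of the study were not used here.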

Additional observations from a re-analysis of the deposited data

How the results depend on the processing

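In *Tem1WT/WT* mice, 0 members passed the test for traction. There was 1, *Sox6*, with genes of at least 10 counts in every library (adjusted p = 0.0479 by edgeR) and 1, *Sox6*, with upper quartile normalization (adjusted p = 0.0461 by edgeR). DESeq2 called 3, *Sox6* (adjusted p = 0.00766), *Cilp* (adjusted p = 0.0383) and *Scx* (adjusted p = 0.0446), and leaving out each library gave 0 to 2, the 2 being *Sox6* and *Cilp* without *Tem1WT/WT* sham replicate 3. Over all alternatives the adjusted p ran from 0.00766 to 0.182 for *Sox6*, from 0.0383 to 0.374 for *Cilp* and from 0.0446 to 0.261 for *Scx*, with the same direction in all. Averaged over genotypes, the count was 1, *Scx*, with DESeq2, 1 with limma-voom, and 0 to 1 when leaving out libraries, the 1 being without *Tem1lacZ/lacZ* traction replicate 1. In the other comparisons it was 0 throughout.

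For traction in *Tem1WT/WT* mice, the list counts were 0 for each of the chondroitin sulfate, aggrecan cleavage, cartilage and tendon matrix lists when only the 6 libraries compared were fitted. When libraries were left out in turn they ran from 0 to 11, 0 to 4, 0 to 4 and 0 to 3, and the count over all genes from 0 to 2861. Aggrecan cleavage had 2 with all genes of at least 1 count and 2 with upper quartile normalization, cartilage matrix 5 with DESeq2, and tendon matrix 1 with limma-voom. Over all genes, 1057 were higher and 668 lower, but 734 and 939 with upper quartile normalization, which moved the median of all genes to −0.12, and 621 and 127 with limma-voom. DESeq2 called 4047 genes, the 6 libraries alone 0.

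Some directions turned. The log2 fold change of *Comp* with traction in *Tem1WT/WT* mice was 0.060 with limma-voom, and that between genotypes in traction was 0.043 with limma-voom. Leaving out each library, traction in *Tem1WT/WT* mice ran from −1.01 to 0.48 for *Acan*, from −0.43 to 0.75 for *Comp*, from −0.26 to 0.54 for *Cilp2* and from −0.79 to 0.030 for *Tnmd*. That in *Tem1lacZ/lacZ* mice ran from −0.20 to 0.036 for *Mkx*. Between genotypes, sham scars gave −1.23 to 0.64 for *Acan* and −0.77 to 0.22 for *Cilp*, traction scars −0.74 to 0.072 for *Cilp2*, and the interaction −0.36 to 0.87 for *Comp*. The cause was not tested.

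Same-numbered libraries come from different mice, and 9 of 18 such pairs had correlated deviations above 0.1 (r from −0.47 to 0.37). Whether same-numbered libraries are more alike than differently numbered ones was not tested. With the replicate number as a block, 0 members passed, the log2 fold change of *Comp* was 0.045, aggrecan cleavage had 2 genes past the threshold and 1467 genes were called in *Tem1WT/WT* traction. With 3 mice per group, low genes such as *Cilp2* (8 to 31 counts) and *Col2a1* carry wide errors.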

Other observations

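Averaged over the genotypes, further genes of the lists rose with traction by edgeR: *Fmod*, a collagen-binding proteoglycan of tendon (log2 fold change 1.39, SE 0.32, adjusted p = 0.0304), the chondroitin sulfotransferase gene *Chst7* (0.93, SE 0.22, adjusted p = 0.0322) and the thrombospondin gene *Thbs2* (1.19, SE 0.33, adjusted p = 0.0459). *Eya2*, a regulator of tendon and muscle development, fell by 0.67 (SE 0.18, adjusted p = 0.0452 by edgeR). Of all genes tested, 6.5% rose and 3.23% fell in this comparison. These calls depended on single libraries. The count over all genes was 1835 with all libraries and 15 without *Tem1WT/WT* sham replicate 1. It was 0 without *Tem1lacZ/lacZ* sham replicate 2, 17 without *Tem1lacZ/lacZ* traction replicate 2 and 3422 without *Tem1lacZ/lacZ* traction replicate 1.

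Some markers of other cell types passed the test for traction in *Tem1WT/WT* mice by edgeR, where 5.61% of all genes rose and 3.54% fell. Of 9 fibroblast genes 2 rose, of 7 neutrophil genes 4 rose and of 7 red cell genes 4 rose, with median log2 fold changes of 1.08, 4.70 and 1.04. Of 11 hair follicle genes 3 fell and of 8 melanocyte genes 1 fell, with medians of −1.78 and −1.77. Of 7 skin and scar genes 1 rose. No gene passed among the 8 Schwann cell, 8 adipocyte, 5 osteoblast, 5 chondrocyte and 7 tenocyte genes tested, with medians of −0.64, −1.46, 0.33, −0.55 and −0.36. In *Tem1lacZ/lacZ* mice 0 genes of these lists passed by edgeR, as did 0 of all genes tested.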
